A study of Homo sapiens with 8 samples.

Results

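The transcription factor AP-1 was followed through its FOS and JUN family genes in A549 cells, an established line from a human lung carcinoma, after exposure to EEDS or to helveticoside. The genes were chosen by symbol as the 4 FOS genes (FOS, FOSB, FOSL1, FOSL2) and the 3 JUN genes (JUN, JUNB, JUND). All 7 were found on the array, each by 1 probe in 1 spot, among 19046 genes with a usable probe, and all 7 passed the filter on dim probes. EEDS is the ethanol extract of Descurainia sophia seeds, and helveticoside is a cardiac glycoside. The EEDS series held a control and doses of 1.25, 5 and 20 μg/mL, and the helveticoside series its own control and doses of 3.75, 15 and 60 nM. Exposure lasted 24 h by the methods and 48 h by the labels. Each array carried RNA pooled from 3 cultures of the unmodified line, and each dose had 1 array, so no dose has a replicate. The agent and the array series cannot be told apart.

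AP-1 is a dimer of basic leucine zipper proteins. FOS proteins do not pair with each other and bind DNA only with a partner such as a JUN protein, whereas JUN proteins also pair among themselves. FOS, FOSB, JUN and JUNB are immediate early genes, whose transcription starts within minutes of a growth factor, stress or calcium signal and usually fades again because their RNA is short-lived. FOSL1 is a later target that AP-1 itself can turn on, and JUND is present in most resting cells. Cardiac glycosides block the sodium pump and so change sodium, potassium and calcium inside the cell.

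The promoters of these genes carry known binding sites for the factors that switch them on, and are shown because the genes were all higher than their controls. The 120 bases before the transcription start were taken from RefSeq (GRCh38.p14) for the 6 genes with an entry, and no promoter is shown for FOSL1. Capitals mark matches, on either strand, to TGACGT (the start of the cAMP response element), TGACATCA (a variant AP-1 site) and TATAAA (the TATA box), and each sequence runs 5′ to 3′ in the direction of the gene.
FOS promoter, chr14:75278708-75278827, plus strand: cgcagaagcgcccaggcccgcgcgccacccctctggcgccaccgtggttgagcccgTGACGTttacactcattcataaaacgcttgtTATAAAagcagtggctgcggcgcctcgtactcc
FOSB promoter, chr19:45467876-45467995, plus strand: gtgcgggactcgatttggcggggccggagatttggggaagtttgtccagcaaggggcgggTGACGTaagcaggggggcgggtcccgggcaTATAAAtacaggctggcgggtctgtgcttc
FOSL2 promoter, chr2:28392738-28392857, plus strand: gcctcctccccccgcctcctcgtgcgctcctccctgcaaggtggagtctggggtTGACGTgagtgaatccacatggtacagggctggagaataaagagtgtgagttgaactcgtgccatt
JUN promoter, chr1:58784048-58784167, minus strand: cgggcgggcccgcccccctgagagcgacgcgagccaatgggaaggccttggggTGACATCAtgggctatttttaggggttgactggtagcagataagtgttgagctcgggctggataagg
JUNB promoter, chr19:12791366-12791485, plus strand: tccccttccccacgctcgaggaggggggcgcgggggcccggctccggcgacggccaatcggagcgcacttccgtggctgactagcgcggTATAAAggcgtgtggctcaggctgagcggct
JUND promoter, chr19:18281623-18281742, minus strand: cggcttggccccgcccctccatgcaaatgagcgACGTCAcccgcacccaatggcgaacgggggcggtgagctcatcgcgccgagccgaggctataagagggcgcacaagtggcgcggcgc

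In the windows from 250 bases before to 50 bases after the start, TGACGT was present in 4 of the 6 promoters, those of FOS, FOSB, FOSL2 and JUND, and in 7.98% of 35116 promoters in the same reference. In FOS, FOSB and FOSL2 the match began 64, 60 and 66 bases before the start. JUND held it at 87 to 82 bases before the start on the opposite strand, and again further upstream, where the matches on both strands overlap and are outside the printed bases. JUN was the promoter among the 6 with TGACATCA, which 2.61% of all promoters held, 67 to 60 bases before the start. TGACTCA, the classical AP-1 site, was found in FOSL2 alone of the 6, just after the start and outside the printed bases, against 4.95% of all promoters. TATAAA was present in FOS, FOSB and JUNB, 3 of 6, against 11.5% of all promoters. No other matches to these motifs overlapped. Sites of this kind were already known in promoters of these genes, so the shares beside them are no test of an excess. These matches are a description of letters, and binding was not measured.

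The arrays gave a median signal of 182 to 278 over a median local background of 27 to 34, and no probe spot was saturated. The 6 genes other than FOSB were well above background on all 8 arrays by the scanner software's call, as were 11488 of the 19046 genes. FOSB was well above background on every array except the one at 3.75 nM helveticoside. Of the epithelial markers, 6 of 6 were well above background on all arrays, while CD3E of T cells, PECAM1 and VWF of endothelium, and COL1A2 and DCN of fibroblasts were not on any array. PTPRC, CD68, CD14, CDH5 and COL1A1 were well above background on all 8 arrays. The normalized signal given here is the background-subtracted signal after quantile normalization over the 8 arrays. It can be compared between arrays for 1 gene, but not between genes, whose probes differ.

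All 7 genes were higher than on the control array at every dose of both agents. The share of all genes with this course was not counted. At 1.25 μg/mL EEDS 38.4% of all genes had a higher ratio than FOSL2, and at 3.75 nM helveticoside 30.1% had a higher one than FOSB. At the top doses the fold over control ran from 2.77 for JUND to 301 for FOSB with EEDS, and from 2.48 for JUND to 35.1 for FOSB with helveticoside. More than 2-fold higher were 3, 4 and 7 of the 7 genes at 1.25, 5 and 20 μg/mL EEDS, where 4.22%, 7.38% and 13.4% of all genes were. With helveticoside, 1, 5 and 7 of the 7 passed 2-fold at 3.75, 15 and 60 nM, against 3.37%, 7.14% and 10.9% of all genes. The count at 15 nM was 3 with the signal as scanned, where FOS had a log2 ratio of 0.93 and FOSB of 0.69, and 2.9% of all genes passed, and that at 1.25 μg/mL was 2, where FOSB had 0.87 and 1.47% of all genes passed. More than 4-fold higher were 5 of 7 at the top dose of each agent, FOS, FOSB, FOSL1, JUN and JUNB, against 3.38% of all genes for EEDS and 2.63% for helveticoside. All 7 passed 2-fold at both top doses, as did 7.41% of all genes. The median log2 ratio of the 7 genes was 0.87, 1.71 and 3.52 at the rising doses of EEDS and 0.86, 1.398 and 2.58 at those of helveticoside, while that of all genes stayed between -0.04 and 0.02. None of the 7 was lower than its control at any dose in these values. Where the difference was smallest, FOSL2 at 1.25 μg/mL and FOSB at 3.75 nM, the log2 ratio was at or just under 0 with the signal as scanned, with normexp correction and in the table the authors deposited (-0.01 and -0.04).

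**Figure D1:**
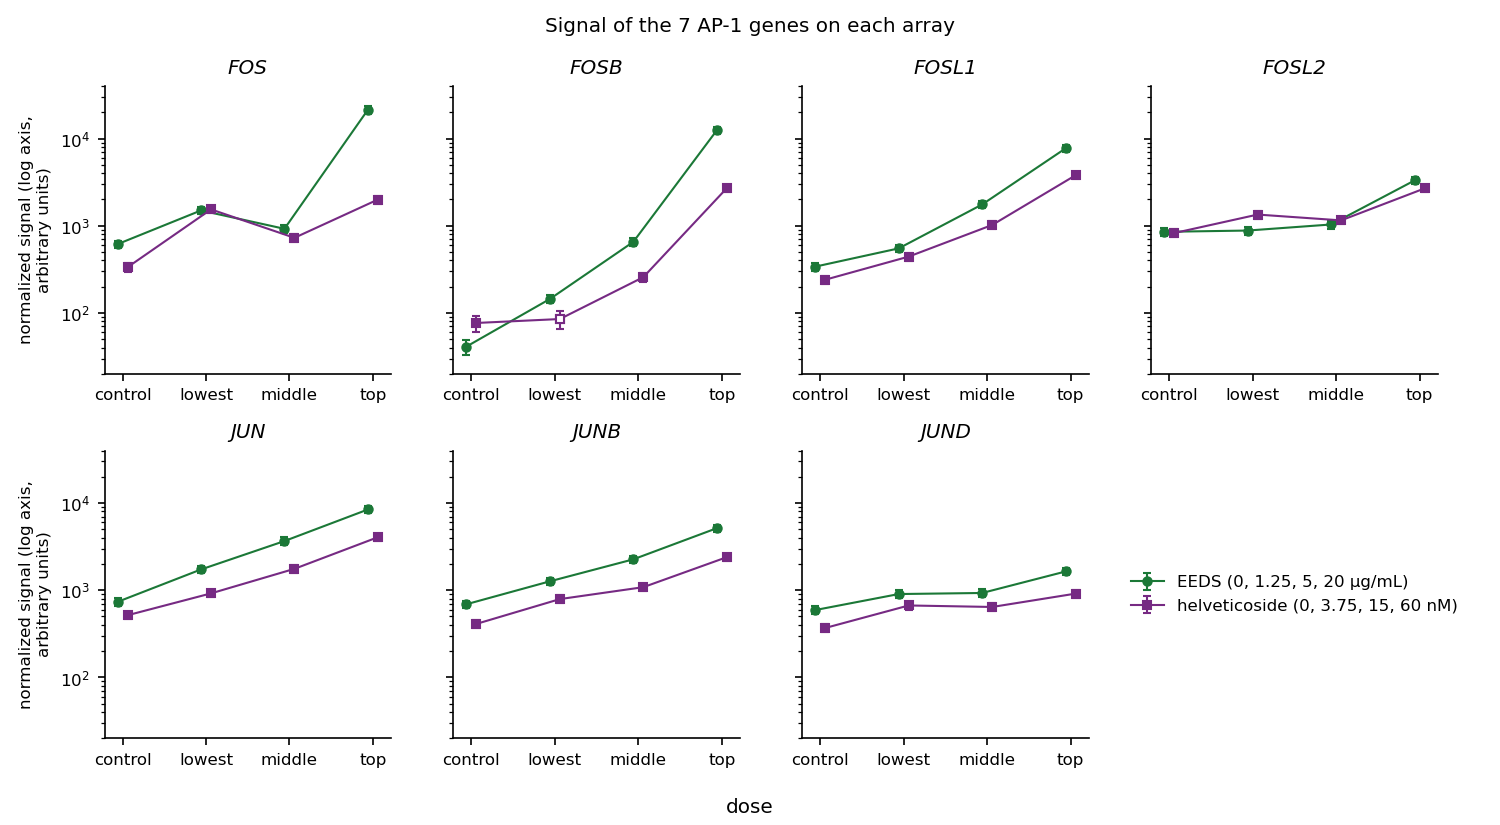
Normalized signal (log axis, arbitrary units) of each gene on the 4 EEDS arrays (green circles) and the 4 helveticoside arrays (purple squares), with bars for the scanner software's error of the single spot and an open square where the spot was not well above background. JUN, JUNB and FOSL1 climb at each dose of both agents, whereas FOS is lower at the middle dose than at the lowest dose in both series.

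FOS is the founding member and the classical immediate early gene. Its normalized signal was 615 on the EEDS control and 1497, 922 and 21363 at 1.25, 5 and 20 μg/mL. In the helveticoside series it was 334 on the control and 1539, 727 and 1997 at 3.75, 15 and 60 nM. The array at 20 μg/mL EEDS thus stood far above the others, while both middle doses lay below both lowest doses. The log2 ratio to control at the top dose was 5.12 with EEDS (34.8-fold) and 2.58 with helveticoside (5.97-fold), the 14th and 235th highest of 19046 genes.

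FOSB, the closest relative of FOS, had the largest ratio of the family at both top doses. Its normalized signal was 41.1, 145, 653 and 12395 from the control to the top dose of EEDS. With helveticoside it was 76.8 on the control, 85.2 at 3.75 nM, where the spot was not well above background, 257 at 15 nM and 2694 at 60 nM. The signal was therefore near the dim end of the scale on both controls and far above it at both top doses. The log2 ratio at the top dose was 8.24 with EEDS and 5.13 with helveticoside, which ranked 2nd and 9th among all genes. Because the control spots were dim, these ratios depend on the background, and with the signal as scanned they were 6.44 and 3.83. The lowest helveticoside ratio under the other processing settings was 3.51.

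FOSL1 encodes FRA1, a FOS protein that lacks the strong activation domain of FOS and is often abundant in carcinoma cells. The normalized signal rose from 340 to 550, 1754 and 7715 over the EEDS series and from 241 to 443, 1020 and 3795 over the helveticoside series. Each array was above the one before it in both series. The log2 ratios were 0.70, 2.37 and 4.51 with EEDS and 0.88, 2.08 and 3.98 with helveticoside, so that at the top doses the gene was 22.7-fold and 15.8-fold higher. FOSL2, which encodes FRA2, had a normalized signal of 851, 881, 1033 and 3303 over the EEDS series and 824, 1343, 1152 and 2676 over the helveticoside series. The largest step of FOSL2 thus lay between the middle and the top dose, a log2 step of 1.68 with EEDS and 1.22 with helveticoside. It was 3.88-fold and 3.25-fold above control at the top doses.

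JUN, the founding member of the other family, had a normalized signal of 735, 1730, 3663 and 8427 over the EEDS series. Over the helveticoside series it was 517, 920, 1759 and 4056. Each dose brought a step of similar size, and the last one was 2.30-fold with EEDS and 2.31-fold with helveticoside. JUNB, which can also restrain JUN activity, had 691, 1265, 2260 and 5141 with EEDS and 411, 792, 1084 and 2393 with helveticoside. At the top doses JUN was 11.5-fold and 7.85-fold above control, and JUNB 7.44-fold and 5.82-fold. Both genes went up at every dose of both agents. JUND, the JUN gene of resting cells, had the smallest top-dose ratio of the family, with a normalized signal of 593, 904, 930 and 1641 with EEDS and 369, 669, 643 and 915 with helveticoside. For JUND the lowest and the middle dose differed by 0.04 with EEDS and by -0.06 with helveticoside on the log2 scale, less than the error of about 0.20 that the scanner software gives a log2 ratio of 2 of its spots.

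The dose trend of each gene was fitted with limma as a log2 slope per dose step (control, lowest, middle, top) over the 8 arrays, and p-values were adjusted by Benjamini-Hochberg over all 19046 genes. Each dose has 1 array, so the SE does not measure a spread between replicates. It reflects how far the arrays of both series lie from straight lines over the dose steps, and is the same for both agents. With EEDS, 5 of 7 genes rose with an adjusted p under 0.05 and none fell, against 7.3% of all genes rising. FOSB had a slope of 2.69 ± 0.40 (SE, adjusted p = 0.0185), FOSL1 of 1.52 ± 0.17 (adjusted p = 0.0141) and JUN of 1.16 ± 0.05 (adjusted p = 0.00724). JUNB rose by 0.95 ± 0.08 per step (adjusted p = 0.0130) and JUND by 0.44 ± 0.10 (adjusted p = 0.0435). The slope of FOS was as steep as that of FOSL1, 1.47, but its SE of 0.51 was larger and the adjusted p was 0.111. The residual SD about the lines was 1.33 for FOS and 0.45 for FOSL1. FOSL2 had 0.61 ± 0.20 with an adjusted p of 0.101.

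With helveticoside, 3 of 7 genes rose, FOSL1, JUN and JUNB, against 5.52% of all genes. Their slopes were 1.31 ± 0.17 (adjusted p = 0.0198), 0.99 ± 0.05 (adjusted p = 0.0148) and 0.81 ± 0.08 (adjusted p = 0.0167). FOSB had a slope of 1.70 ± 0.40 with an adjusted p of 0.0523, and JUND of 0.39 ± 0.10 with an adjusted p of 0.0704. FOS and FOSL2 were further from the threshold, with slopes of 0.67 ± 0.51 and 0.49 ± 0.20 and adjusted p of 0.477 and 0.180. At an unadjusted p under 0.05, limma counted 7 of 7 genes rising with EEDS and 5 of 7 with helveticoside, against 16.4% and 14.7% of all genes. These trends rest on 4 arrays a series and 4 residual degrees of freedom, and when any one of the dose levels was left out limma called 0 of the 7 genes, as it called 0 genes rising in all. With the dose as a fraction of the top dose in place of the step, the genes called were FOS, FOSB, FOSL1 and FOSL2 for EEDS and FOSB for helveticoside, so that every JUN gene lost its call, as did FOSL1 for helveticoside.

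**Figure D2:**
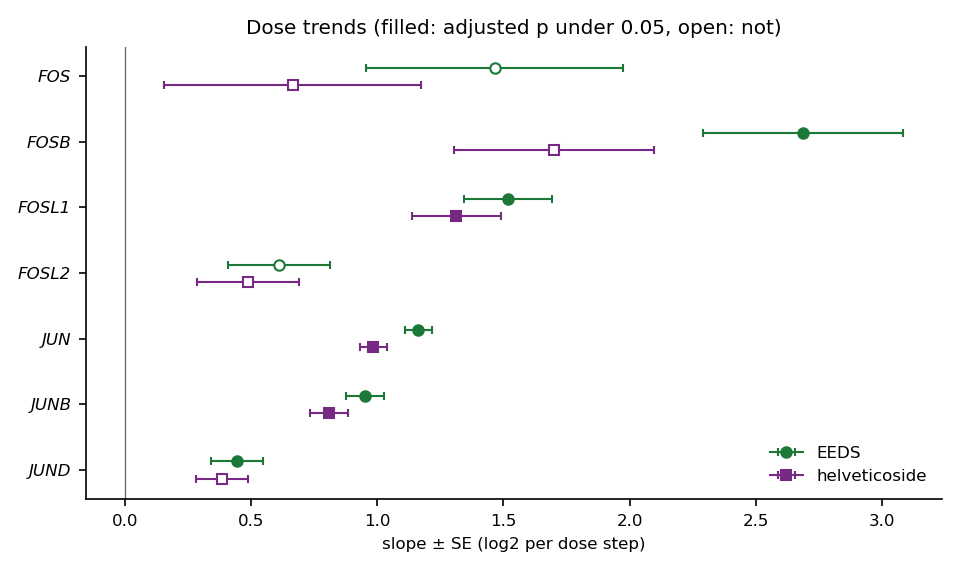
Slope of each gene in log2 units per dose step with its SE, for EEDS (green circles) and helveticoside (purple squares), where a filled symbol has an adjusted p under 0.05 in limma. The slope of each of the 7 genes is steeper with EEDS than with helveticoside, but limma called the difference for 0 of 7. The SE is widest for FOS and FOSB. The doses behind the steps are not matched between the agents. The SE reflects the distance of the arrays from a straight line, not a spread between replicates.

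The doses of the agents are not matched, so their values are given side by side. At the top doses the EEDS fold was 8.59 times the helveticoside fold for FOSB and 5.82 times for FOS, whereas for the other 5 genes it was 1.12 to 1.46 times. At the lowest doses FOS lay the other way, with a log2 ratio of 1.28 with EEDS and 2.20 with helveticoside. The controls themselves differed for FOS, by -0.88 on the log2 scale (helveticoside control minus EEDS control), and the signals at both lowest doses were 1497 and 1539. For FOSB the controls differed by 0.90. The same difference was -0.50 for FOSL1, -0.51 for JUN, -0.75 for JUNB, -0.68 for JUND and -0.05 for FOSL2. Its SD was 0.65 over all genes and 0.48 over genes well above background on all arrays. More than 2-fold apart between the controls were 10.5% of all genes and none of the 7. At that share, finding none among 7 genes is no sign that their controls were closer than those of other genes.

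The difference of the slopes, helveticoside minus EEDS, was negative for all 7 genes, and limma called it for 0 of 7, as for 0% of all genes. The share of all genes with a negative difference was not counted. From the most positive of 19046 genes down, JUND ranked 13090th, FOSL2 15421st, JUNB 15956th and JUN 16620th. FOSL1, FOS and FOSB ranked 17026th, 18906th and 18987th. Many genes thus had a more negative difference than JUND or FOSL2. At an unadjusted p under 0.05 it counted 0 of 7, where 2.76% of all genes passed. The difference was -0.99 for FOSB with a 95% interval of -2.39 to 0.41, and -0.80 for FOS with an interval of -2.60 to 0.997. For JUN the interval was much narrower, -0.37 to 0.01 around -0.18, and for JUNB it was -0.41 to 0.12 around -0.14. The intervals of FOSL1 (-0.82 to 0.41), FOSL2 (-0.84 to 0.59) and JUND (-0.42 to 0.30) all held 0.

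**Figure D3:**
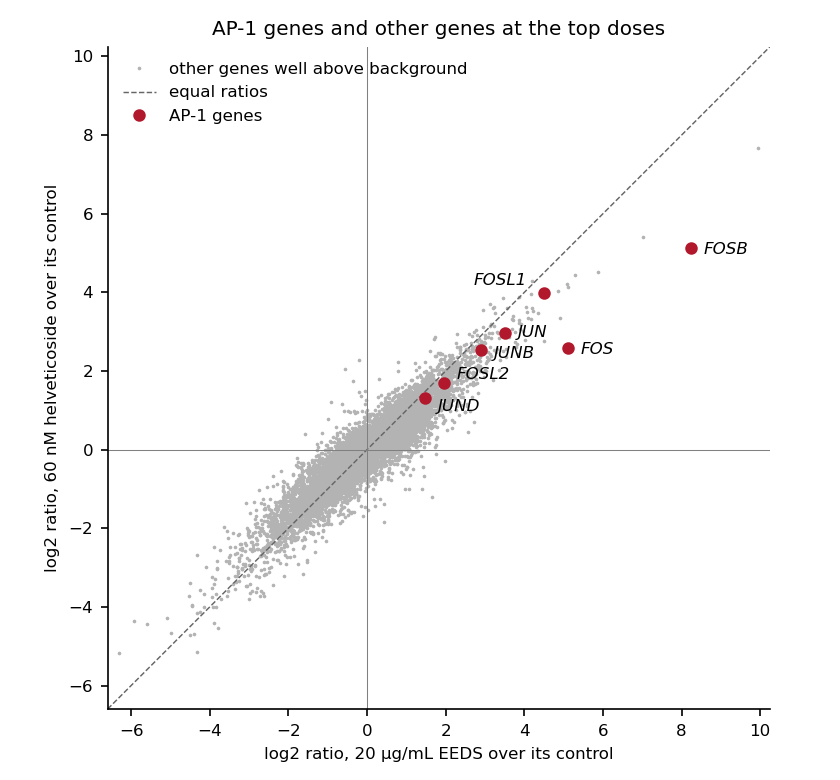
Log2 ratio over control at 20 μg/mL EEDS (x axis) and at 60 nM helveticoside (y axis) for the 7 AP-1 genes (red) and for other genes well above background on all 8 arrays (grey), with a dashed line where the ratios are equal. FOSL1, FOSL2, JUN, JUNB and JUND lie close under the line, whereas FOS, at 5.12 and 2.58, and FOSB, at 8.24 and 5.13, lie far below it.

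The course over the doses differed within the family. Higher at each dose step were 6 of 7 genes with EEDS, all but FOS, against 19.3% of all genes. With helveticoside these were FOSB, FOSL1, JUN and JUNB, 4 of 7, against 12.3%. Some steps were within the spot error, 0.05 for FOSL2 to 1.25 μg/mL, 0.15 for FOSB to 3.75 nM. The step of JUND to the middle dose was 0.04 with EEDS and -0.06 with helveticoside. Under some other settings the first steps of FOSL2 with EEDS and FOSB with helveticoside were just under 0, so both counts depend on the processing. From the lowest to the middle dose FOS had a log2 step of -0.70 with EEDS and -1.08 with helveticoside, and this step stayed between -0.74 and -0.69 and between -1.08 and -0.98 under 8 settings of the processing. From the middle to the top dose it was then 23.2-fold higher with EEDS and 2.75-fold higher with helveticoside. FOSB was 19.0-fold and 10.5-fold higher over the same step. A course like that of FOS, over 2-fold at the lowest dose, lower at the middle dose and highest at the top dose, was looked for after these values were seen. It was shared in both series by 5 of 19046 genes, FOS, ID4, PER1, SCML1 and TEF, while 95 genes had it with EEDS and 53 with helveticoside. SCML1 and TEF were not well above background on every array. PER1 and TEF belong to the circadian clock and its output, and ID4 encodes an inhibitor of helix-loop-helix factors.

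For each member the genes with the most similar values were sought. The likeness was the root mean square difference over the 6 log2 ratios, taken against 11482 genes that were well above background throughout. FOS was nearest to PER1, at 0.75, with log2 ratios of 2.34, 1.70 and 4.90 for PER1 with EEDS and 2.27, 1.76 and 3.35 with helveticoside. NR1D1, a nuclear receptor of the circadian clock, and SERTAD1 followed at 0.83 and 0.86. FOSB was nearest to ATF3, a stress-induced partner of AP-1, at 0.90, then to PPP1R15A, which reverses the stress block on translation, at 1.17 and to MAFF at 1.43. FOSL1 had close neighbours in CCN1, a secreted matrix protein, at 0.26, C3orf52 at 0.33 and the cytokine IL11 at 0.46. JUN lay nearest to AEN (0.16), the growth factor AREG (0.19) and BBC3 (0.19), which encodes the cell death protein PUMA. JUNB lay nearest to the MAP kinase phosphatase DUSP1 (0.13), then FAM83G (0.17) and the kinase PIM3 (0.19). FOSL2 had SERTAD2 (0.19), ALKBH1 (0.23) and SERTAD3 (0.24), and JUND had RBM33, RFX1 and HAS3 (0.12 each). Of the 11482 genes, 1049 lay within 0.5 of JUND, 316 of FOSL2, 127 of JUNB, 49 of JUN and 3 of FOSL1. Within 0.5 of FOS and of FOSB lay 0 genes. Small differences from JUND and FOSL2 were thus not particular to the genes named. Within the family the nearest pairs were FOSL2 with JUND (0.40) and JUN with JUNB (0.45).

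Of 14 other basic leucine zipper genes whose proteins can join AP-1 dimers or compete with them, 3 rose with EEDS and 3 with helveticoside in the same fit. Of all genes 7.3% rose with EEDS and 5.52% with helveticoside. The rising genes of the list were ATF3, MAFF and MAFK with both agents. ATF3 had log2 ratios of 1.78, 3.54 and 7.02 with EEDS and 0.86, 3.37 and 5.397 with helveticoside, although its 4 probes disagree and their mean gave 4.86 and 3.56 at the top doses. MAFF and MAFK, small MAF proteins without an activation domain, had 5.30 and 2.42 at 20 μg/mL and 4.44 and 2.31 at 60 nM. BATF3 fell with EEDS, with -1.11 at the top dose (adjusted p = 0.0497), where 7.9% of all genes fell, and with helveticoside it had -1.05 (adjusted p = 0.0577). ATF2, the usual partner of JUN at the JUN promoter, had 0.45 and 0.11 at the top doses with no call. MAF had 1.74 and 2.86 at the top doses with no call (adjusted p of 0.207 and 0.0999). ATF7, BATF and NFE2L2, with 1 probe each, were not well above background on any array, and whether these probes report their transcripts was not tested. The median top-dose log2 ratio of the 14 genes was 0.72 with EEDS and 0.44 with helveticoside, against 0.02 and 0.00 for all genes. Over the 11 genes well above background on the control and the top dose it was 0.99 and 0.49.

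Among 13 factors that act on the FOS and JUN promoters, 5 rose and 1 fell with EEDS, and 2 rose and 1 fell with helveticoside. Of all genes 7.3% rose and 7.9% fell with EEDS, and 5.52% rose and 5.85% fell with helveticoside. The shares of these factors that fell were near those of all genes. ELK3, a ternary complex factor that binds beside the serum response factor, rose with both agents (2.15 and 2.395 at the top doses), as did MEF2D (1.18 and 1.60). The 2 probes of MEF2D disagree, and their mean gave 0.37 and 0.84. ELK4, ATF1 and MEF2A rose with EEDS, with 0.98, 1.41 and 1.12 at 20 μg/mL. MRTFB, a coactivator of the serum response factor, fell with both, with -1.07 and -1.33. The serum response factor gene SRF itself had log2 ratios of 2.02 and 2.29 at the top doses with adjusted p of 0.0649 and 0.0513. ELK1 had 1.97 at 20 μg/mL and was at least 2.59-fold higher at 60 nM than on its control, where the spot was not well above background, with no call, and MEF2C was not well above background on any array. CREB1, whose protein binds the cAMP response element, had 0.67 and 0.37 with no call. The median of the 13 genes was 1.12 and 0.98.

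Of 17 listed kinases that act on AP-1, 16 were measured, since no probe was matched to MAPK8. MAP2K1, which activates the ERK kinases, and MAP2K7, which activates the JNK kinases, rose with both agents, with 1.14 and 0.98 at 20 μg/mL and 1.29 and 0.88 at 60 nM. Rising genes were thus 2 of 16 with each agent, against 7.3% and 5.52% of all genes. The other 14 had no call with either agent, among them MAP2K5 with -2.11 at 20 μg/mL (adjusted p = 0.0722) and MAPK10, which was not well above background on any array. The median of the 16 was 0.35 and 0.01, and 0.17 and 0.07 over the 15 well above background on the control and the top dose. Of 14 genes for turnover and cofactors of AP-1 proteins, 3 rose and 1 fell with EEDS, where 7.3% of all genes rose and 7.9% fell, so the share that fell was near that of all genes. FBXW7, the ubiquitin ligase subunit that recognises JUN, the acetyltransferase gene EP300 and the deacetylase gene SIRT1 rose, with 2.10, 1.17 and 1.34 at 20 μg/mL. DET1, part of another ligase for JUN, fell, with -2.54. With helveticoside SIRT1 rose (0.93) and none fell, and this 1 of 14 was near the 5.52% of all genes that rose. The median of the 14 was 0.03 and -0.06.

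Of 27 textbook targets of AP-1, 5 rose and 2 fell with EEDS and 3 rose and 2 fell with helveticoside. Of all genes 7.3% rose and 7.9% fell with EEDS and 5.52% rose and 5.85% fell with helveticoside, so the shares of targets that fell were near those of all genes. PLAUR, the urokinase receptor, rose with both (1.61 and 1.62 at the top doses), as did VEGFA, the angiogenic growth factor (2.25 and 2.04), and CXCL8, the chemokine interleukin 8. CXCL8 had 2.81, 4.46 and 5.52 with EEDS, and with helveticoside it was at least 54.2-fold higher at 60 nM than on its control, where the spot was not well above background. The metalloproteinase genes MMP9, with 0.96 at 20 μg/mL, and MMP10, at least 6.37-fold higher there, rose with EEDS. Over a dim control, MMP10 had a log2 ratio of 4.58 at 5 μg/mL and 3.92 at 20 μg/mL. At 60 nM MMP9 had 0.82 and MMP10 was at least 4.25-fold higher, with adjusted p of 0.0696 and 0.0782 in limma. CD44, an adhesion receptor, fell with both (-1.37 and -1.13), as did the keratin gene KRT18 (-0.58 and -0.56). The urokinase gene PLAU had 1.47 and 1.32 and the cyclin gene CCND1 1.07 and 1.10, with no call. The cytokine genes CSF2, IL6 and TNF, not well above background on the EEDS control, were at least 9.03-fold, 3.25-fold and 3.46-fold higher at 20 μg/mL, with no call. MMP3, MMP13, IL2, COL1A2, FASLG and DCN were not well above background on any array. The list had a median of 0.58 with EEDS and 0.70 with helveticoside, and of 0.85 over 16 genes and 0.71 over 15 genes that passed the scanner software's background call on the control and the top dose.

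**Figure D4:**
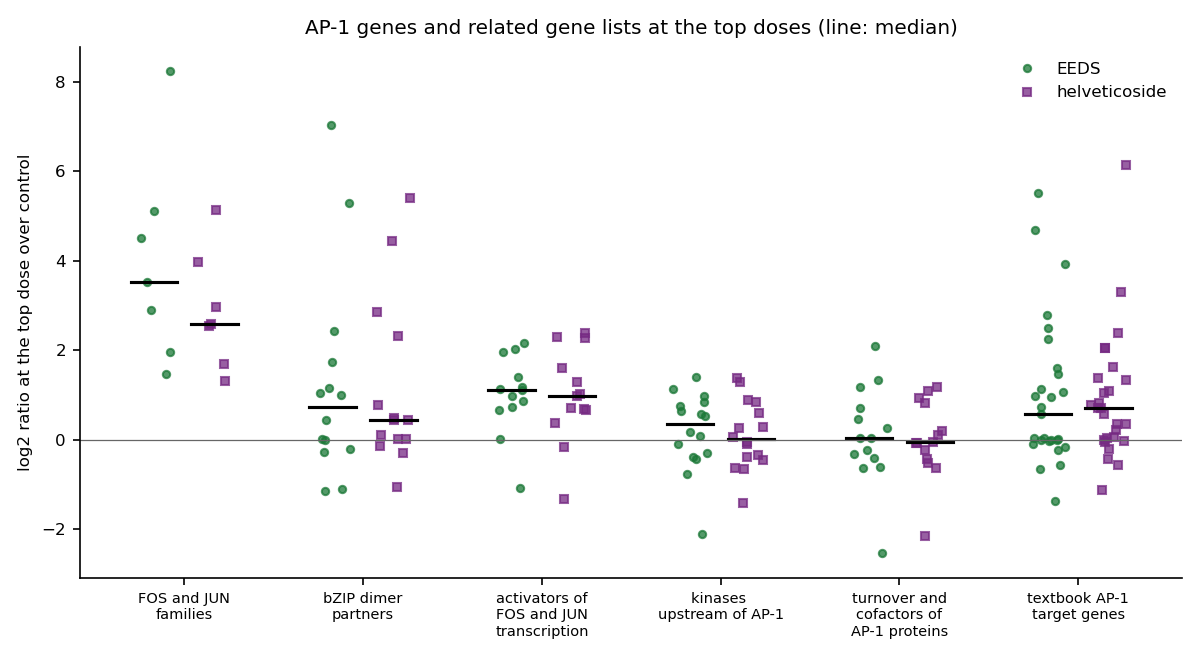
Log2 ratio over control at the top dose of EEDS (green circles) and helveticoside (purple squares) for each of the 7 AP-1 genes and for the genes of 5 related lists, with a line at the median of each. The 7 AP-1 genes all lie above 1, with medians of 3.52 and 2.58, whereas every other list spreads to both sides of 0.

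Beside the AP-1 genes, epithelial markers also changed. KRT8, KRT18, KRT19 and CDH1, the E-cadherin gene, fell with EEDS, 4 of 6 markers, and KRT18, KRT19 and CDH1 fell with helveticoside, 3 of 6, against 7.9% and 5.85% of all genes. KRT7 had 0.62 and 0.53 at the top doses and EPCAM 0.05 and -0.26, with no call. CDH1 had log2 ratios of -2.70 and -2.71 at the top doses and KRT19 of -1.90 and -1.72. None of the leukocyte, endothelial and fibroblast markers named here had a call, though some had large ratios. At the top doses of EEDS and helveticoside CD14 had -1.57 and -2.28, CD68 0.90 and 0.94, and COL1A1 0.80 and 0.71. PTPRC had 0.20 and 0.20, and CDH5 0.10 and 0.19. In RNA pooled from whole cultures, fewer cells of a kind and less RNA per cell cannot be told apart, and the part of these markers in the AP-1 values was not tested.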

How the data were processed

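The members and gene lists were chosen with earlier results of these data known. Agilent Feature Extraction intensity values per spot were deposited by the authors, namely a background-subtracted processed signal with its error, the median signal, the local background and the spot calls. The authors also deposited 1 table of processed intensity values, quantile-normalized within each series, which served as an alternative. Their methods left out spots under 1.4 times the local background. The genome build of the array annotation is not given in the sources used here, and other batches than the series could not be examined.

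Without control and outlier spots, the processed signal was averaged per probe, quantile-normalized over the 8 arrays and put on the log2 scale. The number of arrays limits the precision. All spots of 22 probes were outliers on an array. Of 34127 probes, 24812 were matched through their accession to 19056 genes of RefSeq. The brightest probe on average stood for each of the 4797 genes with more than 1 probe. A gene entered the tests when it passed 1.4 times the background on at least 1 array of each series (19046 genes), and values under that limit were raised to the lowest detected signal. A bound sets the bright array against the higher of the dim spot's signal and the lowest well-above-background signal of its array. Log2 ratios compare each dose with its own series' control, with no test.

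Trends were fitted with limma 3.58.1 (R 4.3.3, statmod 1.5.0, trend and robust estimation), two-sided, with 1 intercept and 1 slope for each series, and the fit was tested on simulated data first. Intervals are at 95%. List genes could be named when called, over 4-fold at a top dose or not well above background on any array, and a few others were named after their values were seen. Not all listed markers are reported here. The alternatives were other signals, background corrections, scalings, filters, probes, controls, dose scales and sets of arrays. Python 3.11.15, numpy 2.4.6 and pandas 2.3.3 were used.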

Additional observations from a re-analysis of the deposited data

How the results depend on the processing

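Counts of genes over 2-fold at the lower doses were smaller by up to 2 of 7 under other backgrounds, scalings or values. The 7 genes stayed over 2-fold higher at the top dose of EEDS under every alternative that kept them, and so they did with helveticoside except against the EEDS control, where JUND had a log2 ratio of 0.63. Scaling to the 75th percentile shifted the median log2 ratio over all genes to -0.20, -0.21 and -0.36 with EEDS and 0.14, -0.12 and -0.18 with helveticoside, and the ratios are given relative to quantile normalization. Of 330 ratios recomputed, 276 moved by less than the residual SD of the gene and none that was over 2-fold turned in direction. That SD is the distance from straight lines over the dose steps, 1.33 for FOS and 1.03 for FOSB. For these genes it is a loose limit. Of the trend counts, those with helveticoside went from 3 to 1 with the dose as a fraction of the top dose. The number of AP-1 genes with a rising trend was 0 for both agents with only the 4 arrays of a series, and 0 for both without the lowest, the middle or the top dose, and so was the number of all genes, since these fits have fewer arrays. At an unadjusted p under 0.05, limma still counted 5 and 6 of the genes with 4 arrays, 5 and 5 without the lowest dose, 7 and 6 without the middle dose, and 4 and 4 without the top dose, for EEDS and helveticoside in turn, where 14.2% and 12.9%, 13.4% and 11.4%, 13.9% and 12.0%, and 9.99% and 8.52% of all genes passed. Over the 10 settings with all 8 arrays, FOS was called for EEDS in 6 (adjusted p 0.0348 to 0.114) and FOSL2 in 4, while FOS and FOSL2 were called for helveticoside in 0. FOSB was dropped when all arrays had to be well above background. The difference of the slopes was called for 0 of the genes in every fit that gave one. No paired analysis was possible because each dose has 1 array and the samples carry no replicate numbers.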
